A study of Mus musculus with 32 samples.

Results

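The RNAs described here encode the core of the basement membrane: the laminin chains *Lama1*, *Lama5*, *Lamb1*, *Lamb2* and *Lamc1*, the type IV collagen chains *Col4a1* and *Col4a2*, and the partners *Nid1*, *Hspg2* and *Sparc*. These 10 genes were chosen by name, out of 51826 in the table of gene counts, and each matched 1 row through its annotated symbol. All 10 passed the filter on low counts and are among the 19037 genes tested. Laminins are secreted trimers of an α, a β and a γ chain that assemble into a sheet on the cell surface, where integrins and dystroglycan bind them. Type IV collagen forms a second network from trimers of its α1 and α2 chains, and nidogen and the heparan sulfate proteoglycan perlecan, encoded by *Nid1* and *Hspg2*, tie the networks together, while SPARC is a secreted protein that binds collagen. In the peri-implantation embryo primitive endoderm is known as a rich source of these proteins, and the epiblast, the tissue that ES cells (ESCs) resemble, rests on the membrane they form.

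The study followed mouse ESCs as they leave the naive state, which a MEK inhibitor (PD) and a GSK3 inhibitor (CHIR99021, CH) hold in place when both are added to N2B27, a serum-free medium, as 2i. Wild-type cells carried RGd2, a destabilised GFP reporter of *Rex1* (*Zfp42*), and all mutant lines were derived from them by deleting parts of *Etv5*, *Rbpj* or *Tcf3* (listed under its official symbol *Tcf7l1*) with pairs of CRISPR guides. RNA-seq covered 32 libraries in 11 conditions, with 3 libraries a condition and 2 for *Etv5*-KO at N16h. RGd2 cells were sampled in 2i and 16 h after its withdrawal to N2B27 (N16h), and again after 5 passages in 2i (2i-p5), after 2 passages in CH alone (CHp2) and after 72 h in N2B27 (N72h). *Rbpj*-KO and *Etv5*-KO cells were sampled in 2i and at N16h, double mutants of *Etv5* and *Rbpj* (ER-dKO) after 5 passages in CH alone (CHp5), and triple mutants of *Etv5*, *Tcf3* and *Rbpj* (ETR-tKO) after 5 passages in N2B27 without inhibitors (Np5). Within a condition each mutant library is a separate clonal line, and lines recur between 2i and N16h. The names of ETR-tKO replicates 14 and 15 in the labels, (Tc1)ERc2 and (Tc1)ERc10, both carry Tc1 in brackets, and that of replicate 13, (ETc1)Rc53, carries ETc1. If the brackets name a parent clone, the 3 lines are not fully independent and their p-values may be too small. Within each RGd2 condition, 2 libraries came from the parental line and the third (replicates 33, 3, 6, 24 and 9) from RGd2-clonal, a single clone of it. Cells of the 2i and N16h libraries had been expanded in CH with LIF and moved to 2i shortly before. These libraries were therefore compared only with each other, apart from the comparison of 2i-p5 with 2i.

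Levels are given as spike-in-scaled FPKM, fragments per kilobase of exon on a scale set by synthetic RNA added to each sample, so that values compare between genes and between libraries. Libraries held between 5986857 and 71439411 counts on genes, and the lowest count of a member in any library was 35. The pluripotency factor *Pou5f1* was at 239 to 605 scaled FPKM in all 32 libraries, and *Zfp42* was at 10.4 to 11 at N72h and 66.8 or more elsewhere. *Rbpj* was at 2.96 to 3.78 in *Rbpj*-KO against 12.1 to 15.4 in RGd2 in 2i, and at 7.56 to 8.47 against 37.3 to 38.7 at N16h. *Etv5* was at 19.7 to 22.4 in *Etv5*-KO against 133 to 158 in RGd2 in 2i, and at 25.7 to 31.8 against 113 to 124 at N16h. In ER-dKO *Etv5* was at 13.1 to 18.4 and *Rbpj* at 3.45, 3.96 and 10.6, so that the library labelled ER-dKO replicate 12 lies above the RGd2 2i-p5 libraries for *Rbpj* (8.57 to 10.3), and in ETR-tKO *Etv5* was at 10.5 to 24.0, *Rbpj* at 4.72 to 7.11 and *Tcf7l1* at 0.287 to 1.18. Reads outside a deleted part still count for the gene, so these levels do not show which lines lack the protein. Below, a member is called where its p, taken from the quasi-likelihood F test of edgeR and adjusted over all 19037 genes by Benjamini-Hochberg, is under 0.05 and its mean FPKM is at least 1 in either group. Log2 fold changes are on the spike-in scale with their standard errors (SE), levels are listed in the order of the replicate numbers in the labels, and p-values measure the spread between these libraries.

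In the annotation of GRCm38 (mm10), *Col4a1* (ENSMUSG00000031502.11) at chr8:11198423-11312826 on the minus strand and *Col4a2* (ENSMUSG00000031503.13) at chr8:11312805-11449287 on the plus strand lie head to head, and their first exons overlap by 22 bases. The overlap is shown because the pair of collagen chains gave the largest changes among the members; it stands in capitals in the plus-strand sequence of chr8:11312801-11312830. The counting used strand, so reads from the 2 genes are assigned apart.
Col4a1 and Col4a2 first exons: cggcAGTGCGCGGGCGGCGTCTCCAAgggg

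The other members lie apart from each other, with *Lama1* (ENSMUSG00000032796.7) at chr17:67697265-67822645 on the plus strand, *Lama5* (ENSMUSG00000015647.9) at chr2:180176373-180225859 on the minus strand, *Lamb1* (ENSMUSG00000002900.16) at chr12:31265234-31329644 on the plus strand, *Lamb2* (ENSMUSG00000052911.9) at chr9:108479736-108490530 on the plus strand, *Lamc1* (ENSMUSG00000026478.14) at chr1:153218922-153332786 on the minus strand, *Nid1* (ENSMUSG00000005397.8) at chr13:13437551-13512269 on the plus strand, *Hspg2* (ENSMUSG00000028763.17) at chr4:137468769-137570630 on the plus strand and *Sparc* (ENSMUSG00000018593.13) at chr11:55394500-55423183 on the minus strand. RefSeq (GRCm38.p6) gave promoters of 250 bases before to 50 after the start for 8 of the 10 members, without *Lama1* and *Lamc1*. They were searched on both strands for core letters bound by RBPJ and by ETS factors such as ETV5. The letters were TGGGAA for RBPJ (also in the longer form GTGGGAA, which contains it) and CCGGAA for ETS factors. No letters bound by TCF3 were searched for. TGGGAA was found in 3 of the 8, those of *Lamb1*, *Nid1* and *Hspg2*, against 25.6% of 32851 promoters, GTGGGAA in that of *Hspg2* alone, against 6.38%, and CCGGAA in that of *Nid1* alone, against 14.9%. The 3 stretches that hold these letters are shown with the matches in capitals, *Lamb1* at chr12:31265043-31265233, *Nid1* at chr13:13437352-13437550 and *Hspg2* at chr4:137468758-137468787, all on the plus strand, which is the strand of each gene. A match describes the letters only.
Lamb1, upstream: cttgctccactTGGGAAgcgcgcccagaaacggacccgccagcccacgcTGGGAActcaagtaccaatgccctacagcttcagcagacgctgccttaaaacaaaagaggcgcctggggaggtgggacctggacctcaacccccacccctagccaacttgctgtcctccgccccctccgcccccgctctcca
Nid1, upstream: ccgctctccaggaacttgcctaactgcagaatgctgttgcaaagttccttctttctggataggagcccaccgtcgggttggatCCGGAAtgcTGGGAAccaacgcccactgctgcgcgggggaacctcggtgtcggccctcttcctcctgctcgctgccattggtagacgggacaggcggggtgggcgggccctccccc
Hspg2, around the start: gggggtgggggGTGGGAAagaggcgagcag

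Some lines stood apart from the other libraries of their condition, and did so in the members themselves. *Col4a1* in the RGd2-clonal library was 3.79 times the mean of the parental libraries in 2i, 2.44 times in CHp2, 3.95 times at N16h and 2.77 times at N72h, but 0.748 times in 2i-p5. In the *Rbpj*-KO line c36 (replicates 30 and 21) *Col4a1* was 5.29 times the mean of the other lines in 2i and 4.82 times at N16h. *Lama1* stood out less evenly, at 1.14 times in RGd2-clonal in 2i and 4.58 times at N16h, and at 1.47 and 5.48 times in c36. The summed level of 9 primitive endoderm markers (*Gata6*, *Gata4*, *Sox17*, *Sox7*, *Pdgfra*, *Foxa2*, *Dab2*, *Cubn* and *Amn*) moved with it: it was 3.48 times that of the parental libraries in RGd2-clonal in 2i, 0.906 times in 2i-p5, 1.48 times in CHp2, 2.76 times at N16h and 3.00 times at N72h, and 6.43 and 5.34 times that of the other lines in c36. The sum was low throughout, from 0.666 scaled FPKM in 2i-p5 to 24.6 in RGd2-clonal at N72h. In bulk RNA, more cells of a type and more RNA per cell cannot be told apart, and the part that primitive endoderm-like cells had in the results was not tested. Each comparison below that holds RGd2-clonal or c36 libraries is therefore also given without them, an alternative chosen after the data were seen. It removes libraries that were seen to widen the spread, and leaves 2 libraries of the parental line in each RGd2 condition. Its p-values are therefore smaller in part by that choice and do not measure the spread between RGd2 lines. For *Col4a1* in *Rbpj*-KO against RGd2 at N16h, the SE went from 0.56 to 0.15. Shares of all genes called were counted in the main fit with all libraries only. Counts of members called without these lines, or in other settings, therefore have no such share beside them.

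**Figure D1:**
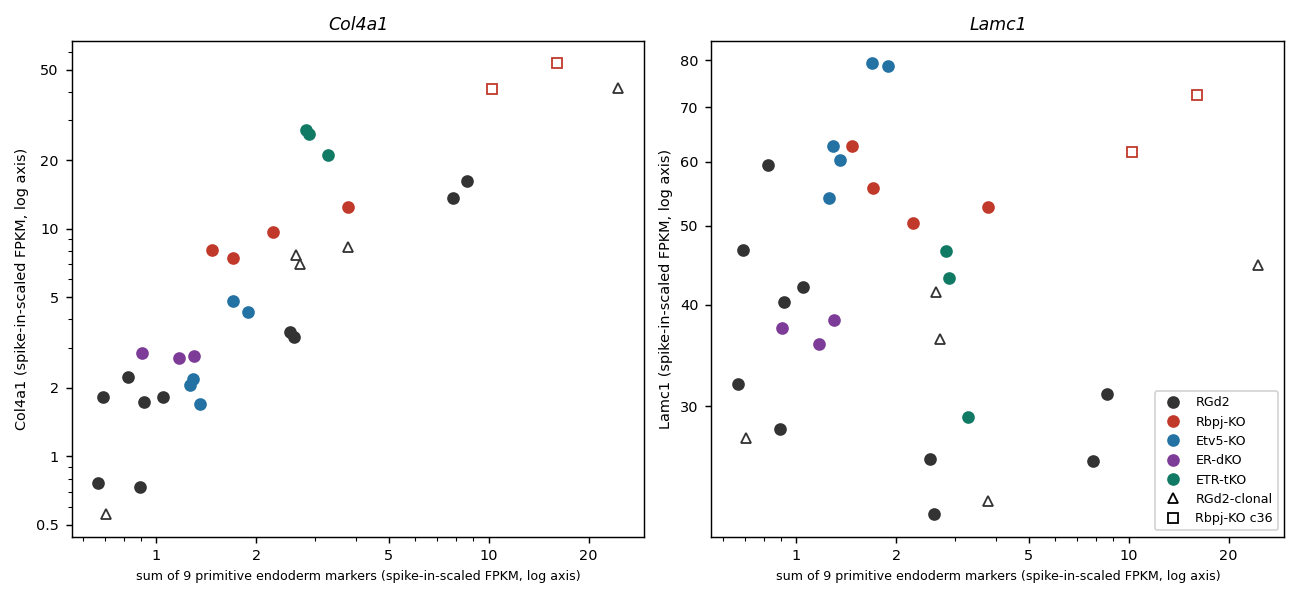
Spike-in-scaled FPKM of *Col4a1* and *Lamc1* (vertical, log scale) against the summed scaled FPKM of 9 primitive endoderm markers (horizontal, log scale), 1 point per library, with RGd2-clonal and *Rbpj*-KO c36 libraries marked by their own symbols. The libraries with the highest *Col4a1* levels include c36 at N16h (53.5) and RGd2-clonal at N72h (41.5), which also have the highest marker sums, while the ETR-tKO libraries reach 21.2, 27.2 and 26.1 at marker sums of 2.83 to 3.28.

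Per length, the laminin chains were present at very different levels. *Lamc1*, the γ1 chain shared by most laminins, had mean levels between 23.6 ± 1.96 (SD, n = 3) in CHp2 and 79.0 in *Etv5*-KO at N16h (n = 2), a ratio of 3.34. *Lama5*, the α5 chain, lay between 13.1 ± 1.30 in *Etv5*-KO in 2i and 44.9 ± 4.56 in RGd2 CHp2, and *Lama1*, the α1 chain typical of the early embryo, between 1.68 ± 1.12 in RGd2 CHp2 and 19.8 ± 2.04 in ER-dKO. Among the β chains, *Lamb1* lay between 2.73 ± 0.249 in ER-dKO and 25.9 ± 5.80 at N72h, and *Lamb2* between 3.66 ± 0.779 in RGd2 at N16h and 10.4 ± 0.471 in ER-dKO. CHp2 thus had the lowest mean *Lama1* and the highest mean *Lama5*, and ER-dKO the lowest *Lamb1* and the highest *Lamb2*.

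The collagen chains covered the widest range of any members. *Col4a1* ran from 0.684 ± 0.110 in 2i-p5 to 25.2 ± 24.5 in *Rbpj*-KO at N16h, a ratio of 36.9 between means, and *Col4a2* had a ratio of 34.6. Nidogen RNA, *Nid1*, ranged from 3.28 ± 0.707 at N72h to 47.0 ± 5.91 in *Etv5*-KO in 2i, a ratio of 14.3. *Sparc*, from 18.4 ± 1.23 in CHp2 to 65.8 in *Etv5*-KO at N16h, and *Hspg2*, from 10.9 ± 0.906 in 2i-p5 to 26.1 ± 7.22 in ETR-tKO, moved by ratios of 3.58 and 2.39. When the 11 conditions were put in order of their mean, most neighbours overlapped in their libraries: 5 of 10 pairs for *Nid1*, the fewest, 6 for *Lamb1* and 9 for *Lamb2* and *Col4a2*, the most.

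**Figure D2:**
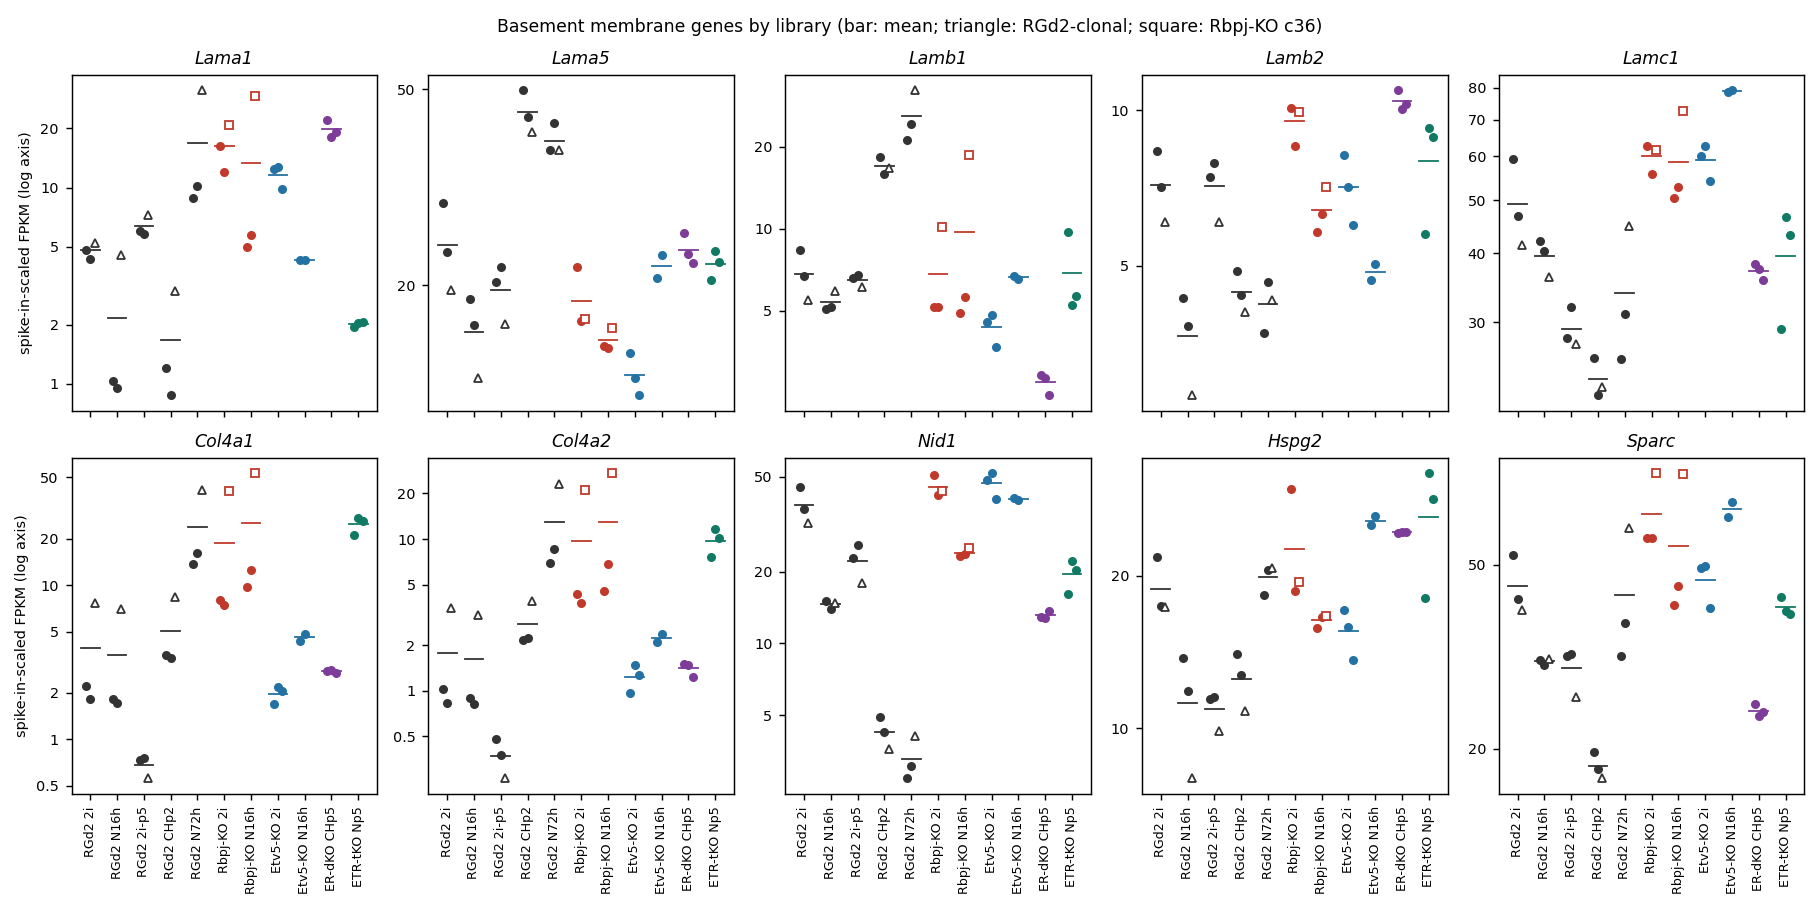
Spike-in-scaled FPKM (log scale) of each of the 10 members in every library, by condition, with triangles for RGd2-clonal and squares for the *Rbpj*-KO line c36. *Nid1* is lowest in the RGd2 CHp2 (4.91, 4.24 and 3.61) and N72h (2.71, 3.07 and 4.07) libraries, and *Col4a1* is lowest in the 2i-p5 libraries (0.732, 0.762 and 0.559).

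The comparison of N72h with 2i-p5 asks how the basement membrane RNAs stand in RGd2 cells that have had time to leave the naive state. Both collagen IV chains, both α chains and *Lamb1* were upregulated, with smaller rises of *Hspg2* and *Sparc*, while *Nid1* and *Lamb2* were downregulated. Thus 7 of the 10 members were called higher, beside 34.2% of all genes past the FPKM minimum, and 2 lower, beside 22.9%, with a median log2 fold change of 0.93 against 0.092 over all genes. *Col4a1* was at 0.732, 0.762 and 0.559 in 2i-p5 and 13.7, 16.3 and 41.5 at N72h (log2 fold change 5.1, SE 0.67, adjusted p = 2.12e-08). *Col4a2* went from 0.481, 0.376 and 0.264 to 6.93, 8.67 and 23.1 (log2 fold change 5.19, SE 0.68, adjusted p = 2.43e-08). For both chains the conditions did not overlap, and the highest N72h library was RGd2-clonal. *Lamb1* was at 6.60, 6.78 and 6.09 in 2i-p5 and 21.2, 24.3 and 32.4 at N72h (log2 fold change 2.00, SE 0.29, adjusted p = 1.66e-07), and the highest value was again that of RGd2-clonal. *Lama5* rose in all 3 libraries, from 20.3, 21.8 and 16.7 to 37.7, 42.7 and 37.6 (log2 fold change 1.01, SE 0.13, adjusted p = 2.18e-08), and *Lama1* from 6.02, 5.82 and 7.27 to 8.81, 10.2 and 31.5 (log2 fold change 1.41, SE 0.46, adjusted p = 0.0104). *Nid1* fell from 22.9, 25.8 and 17.9 to 2.71, 3.07 and 4.07 (log2 fold change −2.75, SE 0.15, adjusted p = 5.99e-19), so that every N72h library lay far below every 2i-p5 library. *Lamb2* fell from 7.42, 7.92 and 6.09 to 3.71, 4.65 and 4.29 (log2 fold change −0.76, SE 0.15, adjusted p = 6.69e-05), the reverse of the other β chain. The γ1 chain *Lamc1* was at 28.1, 32.0 and 27.4 in 2i-p5 and 25.7, 31.1 and 44.8 at N72h, with overlapping values and no call. Log2 fold changes of the linker *Hspg2* and of *Sparc* were 0.86 (SE 0.16, adjusted p = 2.75e-05) and 0.53 (SE 0.17, adjusted p = 0.0109). These rises depend on the 2i culture taken as reference, as 2i-p5 had the lowest mean *Col4a1*, *Col4a2* and *Hspg2* of all conditions. In the other 2i culture of RGd2 cells, means were 18.9 for *Hspg2* and 44.8 for *Sparc*, against 19.9 and 43.0 at N72h. N72h was not tested against that culture.

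At N72h the primitive endoderm markers were higher too, all 5 of the 9 that passed the FPKM minimum (*Cubn* 8.45, *Gata6* 5.88, *Dab2* 5.46, *Amn* 3.16 and *Gata4* 2.17), and their sum was 7.79 to 24.6 scaled FPKM against 0.666 to 0.892 in 2i-p5, where 1 to 3 of the 9 had no count in a library (*Gata6* in 1, *Sox17* in 1, *Sox7* in 2 and *Foxa2* in 1 of the 3). Other lists compared here were the 7 trophectoderm markers (sum 48.8 to 59.1 against 19.8 to 26.3, 1 called higher and 3 lower), the 5 neural markers (sum 70.0 to 89.3 against 20.7 to 21.9, 2 called higher and 0 lower), the 5 mesoderm markers (sum 0.439 to 0.565 against 5.1 to 6.31, 0 called higher and 1 lower) and the 6 fibroblast markers (sum 5.77 to 6.96 against 1.07 to 2.25, 1 called higher and 0 lower). Without the lines that stood apart, *Col4a1* and *Col4a2* remained higher, at 4.32 (adjusted p = 1.26e-28) and 4.22 (adjusted p = 1.18e-22), as did *Lamb1* at 1.76 (adjusted p = 2.21e-13) and *Lama1* at 0.69 (adjusted p = 6.01e-05), whereas *Sparc* was no longer called (0.11, adjusted p = 0.496). In all, 6 members were then called higher and 2 lower. Of the 18 other basement membrane components listed, 6 passed the FPKM minimum, 3 were called higher and 1 lower (median log2 fold change 0.52). *Fras1* at 2.53, *Nid2* at −1.75 and *Frem2* at 1.28 changed most. *Nid2*, the second nidogen, was therefore lower together with *Nid1*. Of the 13 collagen-processing genes listed, 11 passed the FPKM minimum, 5 were called higher and 1 lower (median log2 fold change 0.039). *Pxdn* at 4.90, *Loxl2* at 3.37 and *P4ha2* at 1.38 changed most. PXDN is the peroxidase that crosslinks collagen IV, and LOXL2 is a lysyl oxidase. Of the 11 basement membrane receptors listed, 6 passed the FPKM minimum, 5 were called higher and 0 lower (median log2 fold change 1.10). *Ddr1* at 3.46, *Itga3* at 3.34 and *Itgb1* at 1.11 changed most. *Itga3* encodes the α3 integrin chain, which with β1 binds laminins that contain α5, and *Ddr1* encodes a collagen receptor kinase. With single libraries left out, calls were lost for *Lama1* without replicate 9 (0.58) and *Sparc* without replicate 3 (0.43) or 9 (0.21). *Lamc1* became called without replicate 7 (0.38). *Col4a1* moved by over 0.58 (log2) without replicate 9 (4.47) and *Col4a2* without replicate 9 (4.45). Other settings ended the call of *Lama1* with DESeq2 (1.40, adjusted p = 0.0559). *Sparc* lost its call with TMM normalization (0.39, adjusted p = 0.0501).

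In CHp2, where cells grew without the MEK inhibitor, laminin chains differed from 2i-p5 in opposite directions. In CHp2 against 2i-p5, *Lama5*, *Lamb1*, *Col4a1* and *Col4a2* were upregulated and *Lama1*, *Lamb2*, *Nid1* and *Sparc* were downregulated: 4 members were called higher (all genes 28.6%) and 4 lower (all genes 13.5%), with medians of −0.055 and 0.12. *Lama5* rose from 20.3, 21.8 and 16.7 to 49.9, 43.9 and 40.9 (log2 fold change 1.20, SE 0.13, adjusted p = 8.32e-10). *Lama1* fell from 6.02, 5.82 and 7.27 to 1.20, 0.874 and 2.96 (log2 fold change −1.95, SE 0.50, adjusted p = 0.00179), with the smallest fall in RGd2-clonal. The α chains thus moved in opposite directions, with no overlap between conditions for either. Among β chains, *Lamb1* rose from 6.60, 6.78 and 6.09 to 18.4, 15.8 and 16.7 (log2 fold change 1.39, SE 0.28, adjusted p = 1.13e-04), and *Lamb2* fell from 7.42, 7.92 and 6.09 to 4.88, 4.39 and 4.07 (log2 fold change −0.68, SE 0.16, adjusted p = 4.97e-04). The collagen chains rose, *Col4a1* to 3.51, 3.35 and 8.37 (log2 fold change 2.91, SE 0.65, adjusted p = 3.75e-04) and *Col4a2* to 2.15, 2.24 and 3.88 (log2 fold change 2.95, SE 0.69, adjusted p = 6.57e-04). *Nid1* fell to 4.91, 4.24 and 3.61 (log2 fold change −2.38, SE 0.15, adjusted p = 1.61e-16), and *Sparc* to 19.7, 18.1 and 17.3 (log2 fold change −0.70, SE 0.18, adjusted p = 0.00147). *Lamc1* at 25.8, 22.1 and 22.9 and *Hspg2* at 14, 12.7 and 10.8 were not called. This comparison and that of N72h share the 2i-p5 libraries. The passage number differs between CHp2 and 2i-p5 along with the medium, and their parts cannot be told apart.

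In CHp2 none of the 9 primitive endoderm markers passed the FPKM minimum, and their sum was 2.52 to 3.77 against 0.666 to 0.892 scaled FPKM. The other marker lists were the 5 mesoderm markers (sum 65.2 to 70.7 against 5.1 to 6.31, 1 called higher and 0 lower), the 7 trophectoderm markers (sum 56.7 to 87.8 against 19.8 to 26.3, 2 called higher and 0 lower), the 5 neural markers (sum 19.4 to 23.6 against 20.7 to 21.9, 1 called higher and 1 lower) and the 6 fibroblast markers (sum 1.60 to 2.35 against 1.07 to 2.25, 0 called higher and 0 lower). The mesoderm gene called is brachyury, and the part of such cells in the result was not tested. Without the lines that stood apart 4 members were called higher and 4 lower, with *Col4a1* at 2.19 (adjusted p = 1.56e-15) and *Lama1* at −2.54 (adjusted p = 3.76e-19). Among other basement membrane components, 7 of 18 passed the minimum, with 5 called higher and 1 lower and a median log2 fold change of 1.21. The largest were *Fras1* at 3.08, *Frem2* at 3.05 and *Col4a5* at 2.77. *Fras1* and *Frem2* encode large proteins of the epithelial basement membrane, and *Col4a5* a further collagen IV chain. Among collagen-processing genes, 11 of 13 passed the minimum, with 5 called higher and 2 lower and a median log2 fold change of 0.26. The largest were *Pxdn* at 3.44, *Loxl2* at 2.96 and *P4ha2* at 1.05. Among basement membrane receptors, 7 of 11 passed the minimum, with 6 called higher and 0 lower and a median log2 fold change of 0.85. The largest were *Itga1* at 2.90, *Itga3* at 2.87 and *Ddr1* at 1.83. *Itga1* encodes the α1 chain of a collagen-binding integrin. With TMM normalization, which removes the shift of the median of all genes, *Lamc1* was called lower (−0.49), and with the clonal line as a replicate block it was −0.30 (adjusted p = 0.00878). When libraries were left out one at a time, the log2 fold change moved by over 0.58 for *Lama1* without replicate 6 (−2.64).

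Ratios within a library do not depend on its scaling, and they set the alternative chains against each other. The ratio of *Lama5* to *Lama1* had a geometric mean of 3.07 in 2i-p5 (libraries 2.29 to 3.74), 30.7 in CHp2 (13.8 to 50.2) and 2.77 at N72h (1.19 to 4.28). The ratio of *Lamb2* to *Lamb1* was 1.10 in 2i-p5, 0.261 in CHp2 and 0.164 at N72h, and it was 1.06 in RGd2 in 2i and 0.670 at N16h. In every library the β ratio was lower in CHp2, N72h and N16h than in the 2i culture they were compared with, and the α ratio was higher in CHp2 than in 2i-p5. Of 9 exact permutation tests over the libraries, two-sided, 4 reached p = 0.1, the smallest that 3 against 3 allows (0.225 after Benjamini-Hochberg adjustment): the α ratio in CHp2 (log2 difference 3.32) and the β ratio in CHp2 (−2.07), at N72h (−2.74) and at N16h (−0.66). *Col4a1* and *Col4a2* kept nearly one ratio, with geometric means between 1.61 and 2.57 over the 11 conditions, although their levels ranged over more than an order of magnitude. In the mutants the α ratio was 1.16 in *Rbpj*-KO and 1.13 in *Etv5*-KO in 2i, 1.20 in ER-dKO and 10.9 in ETR-tKO, and the β ratio was highest in ER-dKO at 3.83.

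**Figure D3:**
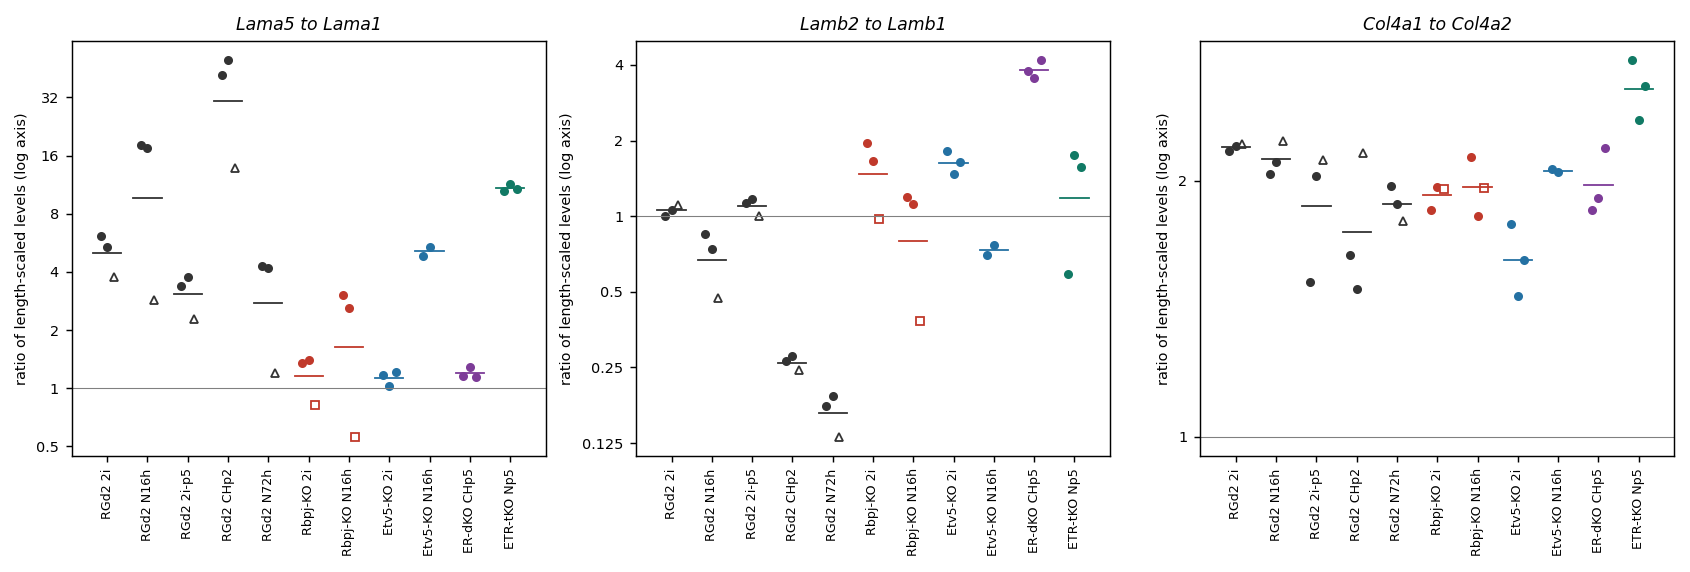
Ratios of scaled FPKM (log scale) of *Lama5* to *Lama1*, *Lamb2* to *Lamb1* and *Col4a1* to *Col4a2* in every library, by condition, with triangles for RGd2-clonal and squares for *Rbpj*-KO c36. The β ratio lies at 0.132 to 0.192 at N72h and 3.54 to 4.20 in ER-dKO, and the collagen ratio stays between 1.47 and 2.77 in all libraries.

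In RGd2 cells at N16h the members called were all downregulated, and over all genes more were called lower than higher too. At N16h against 2i, RGd2 cells had 0 members called higher (8.61% of all genes) and 5 lower (37.3% of all genes). The median log2 fold change was −0.56, beside −0.23 over all genes, the latter −0.024 with TMM normalization. *Nid1* fell most, from 45.2, 36.7 and 32.1 to 15, 14 and 14.8 (log2 fold change −1.38, SE 0.14, adjusted p = 1.09e-10). *Lamb2* fell from 8.35, 7.11 and 6.08 to 4.34, 3.82 and 2.81 (log2 fold change −0.98, SE 0.15, adjusted p = 1.86e-06), and *Hspg2* from 21.8, 17.5 and 17.4 to 13.8, 11.9 and 7.96 (log2 fold change −0.75, SE 0.16, adjusted p = 2.81e-04). *Lama5* (log2 fold change −0.59, SE 0.13, adjusted p = 3.84e-04) and *Sparc* (log2 fold change −0.54, SE 0.17, adjusted p = 0.0121) fell less. In these 5 genes the 3 N16h libraries lay below all 3 libraries in 2i. *Lama1* was at 4.79, 4.35 and 5.21 in 2i and 1.03, 0.950 and 4.54 at N16h: both parental libraries were low and RGd2-clonal was not, and the difference did not pass (log2 fold change −1.16, SE 0.48, adjusted p = 0.0526). Without the lines that stood apart *Lama1* was called lower (−2.21, adjusted p = 2.52e-18), and so it was with the clonal line as a replicate block (−1.56, adjusted p = 1.37e-14). *Col4a1* at 1.83, 1.73 and 7.03 and *Col4a2* at 0.898, 0.823 and 3.15 were close, library by library, to their levels in 2i (2.23, 1.83 and 7.71 and 1.03, 0.834 and 3.49), and neither they nor *Lamb1* and *Lamc1* were called.

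The primitive endoderm marker sum was 0.918 to 2.71 at N16h and 0.691 to 2.63 in 2i, and no marker passed the FPKM minimum. For the remaining cell types the lists were the 7 trophectoderm markers (sum 4.75 to 5.2 against 16.4 to 23.0, 0 called higher and 3 lower), the 5 neural markers (sum 15.1 to 20.1 against 51.2 to 62.6, 2 called higher and 2 lower), the 5 mesoderm markers (sum 0.658 to 0.974 against 3.94 to 8.37, 0 called higher and 1 lower) and the 6 fibroblast markers (sum 0.819 to 0.994 against 1.88 to 2.64, 0 called higher and 1 lower). Leaving out the lines that stood apart gave 0 members higher and 8 lower, with *Lamb1* (−0.55, adjusted p = 0.00514) and *Lamc1* (−0.36, adjusted p = 0.0336) added to *Lama1*. The other basement membrane components had 1 called higher and 3 lower out of 5 past the minimum (18 listed, median log2 fold change −0.73). *Frem2* at −2.39, *Lama3* at 1.99 and *Nid2* at −0.97 led this list. The collagen-processing genes had 1 called higher and 7 lower out of 9 past the minimum (13 listed, median log2 fold change −0.47). *Pxdn* at 1.58, *Serpinh1* at −1.55 and *P3h1* at −0.63 led this list. SERPINH1 (HSP47) is the chaperone of collagen folding. The basement membrane receptors had 4 called higher and 0 lower out of 7 past the minimum (11 listed, median log2 fold change 0.39). *Itga3* at 2.18, *Itga1* at 1.46 and *Itga6* at 0.47 led this list. In fits that lacked 1 library, the call went for *Sparc* without replicate 31 (−0.41). *Lama1* became called without replicate 24 (−2.26) and *Lamc1* without replicate 33 (−0.42). The setting also ended the call of *Sparc* with TMM normalization (−0.35, adjusted p = 0.105).

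RBPJ, the DNA-binding partner of Notch, is known to repress its targets where Notch is not active. In 2i, *Rbpj*-KO cells had more RNA of both collagen chains, *Lama1* and *Sparc* than RGd2 cells, 4 members called higher against 5.24% of all genes, and 0 called lower against 6.11% (medians 0.34 and −0.040). *Col4a1* was at 2.23, 1.83 and 7.71 in RGd2 and 8.07, 7.46 and 41.1 in *Rbpj*-KO (log2 fold change 2.42, SE 0.58, adjusted p = 0.00326), and *Col4a2* at 1.03, 0.834 and 3.49 and 4.37, 3.80 and 21.0 (log2 fold change 2.73, SE 0.59, adjusted p = 0.00104). The highest library was RGd2-clonal in one group and c36 in the other: the lines c28 and c33 lay above the parental RGd2 libraries, and for *Col4a1* line c33 lay below RGd2-clonal. Without both of these, *Col4a1* was at 1.93 (adjusted p = 1.30e-15), *Col4a2* at 2.13 (adjusted p = 8.41e-13) and *Lama1* at 1.63 (adjusted p = 2.05e-13), while *Sparc* was not called (0.27, adjusted p = 0.148). *Lama5* (−0.45, adjusted p = 0.0139) and *Lamb1* (−0.54, adjusted p = 0.0223) were then called lower. *Lama1* was at 4.79, 4.35 and 5.21 in RGd2 and 16.2, 12.1 and 20.7 in *Rbpj*-KO, with no overlap (log2 fold change 1.78, SE 0.47, adjusted p = 0.00916), and *Sparc* at 52.4, 42.1 and 40.0 and 57.1, 56.9 and 78.8 (log2 fold change 0.52, SE 0.17, adjusted p = 0.0491). The primitive endoderm marker sum was 1.47 to 10.2 in *Rbpj*-KO, with c36 the highest, and 0.691 to 2.63 in RGd2, and no marker passed the FPKM minimum. In 2i the other cell type lists were the 7 trophectoderm markers (sum 31.4 to 37.3 against 16.4 to 23.0, 2 called higher and 0 lower), the 5 neural markers (sum 37.3 to 38.3 against 51.2 to 62.6, 1 called higher and 1 lower), the 5 mesoderm markers (sum 2.48 to 4.19 against 3.94 to 8.37, 0 called higher and 1 lower) and the 6 fibroblast markers (sum 1.44 to 1.67 against 1.88 to 2.64, 0 called higher and 0 lower). With single libraries left out, calls were lost for *Lama1* without replicate 32 (1.71) or 30 (1.57), *Col4a1* without replicate 30 (1.13), *Col4a2* without replicate 30 (1.45) and *Sparc* without any 1 of replicates 32 (0.47), 33 (0.45) and 30 (0.34). *Lama5* became called without replicate 33 (−0.51) or 28 (−0.51) and *Lamb2* without replicate 31 (0.51). *Col4a1* moved by over 0.58 (log2) without replicate 33 (3.23) and *Col4a2* without replicate 33 (3.41). Other settings ended the call of *Lama1* with DESeq2 (1.77, adjusted p = 0.0507). *Sparc* lost its call with a fit of only the libraries compared (0.52, adjusted p = 0.163) and DESeq2 (0.52, adjusted p = 0.112).

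At N16h more members differed: 9 of the 10 were called higher in *Rbpj*-KO than in RGd2, beside 18.8% of all genes, and 0 lower, beside 3.41% (medians 0.82 and 0.14). *Lama1* was at 1.03, 0.950 and 4.54 in RGd2 and 4.96, 5.71 and 29.3 in *Rbpj*-KO (log2 fold change 2.64, SE 0.49, adjusted p = 7.24e-05). *Col4a1* was at 1.83, 1.73 and 7.03 and 9.74, 12.5 and 53.5 (log2 fold change 2.86, SE 0.56, adjusted p = 2.04e-04), and *Col4a2* at 0.898, 0.823 and 3.15 and 4.57, 6.87 and 27.3 (log2 fold change 3.03, SE 0.55, adjusted p = 6.92e-05). For these 3 genes each mutant library lay above each RGd2 library, RGd2-clonal included. *Nid1*, at 15, 14 and 14.8 in RGd2, was at 23.2, 23.6 and 25.1 in the mutant (log2 fold change 0.72, SE 0.14, adjusted p = 1.36e-04), and *Lamb2*, at 4.34, 3.82 and 2.81, was at 5.83, 6.29 and 7.11 (log2 fold change 0.80, SE 0.15, adjusted p = 1.16e-04). *Sparc* (log2 fold change 0.83, SE 0.17, adjusted p = 4.58e-04), *Lamc1* (log2 fold change 0.57, SE 0.15, adjusted p = 0.00647) and *Hspg2* (log2 fold change 0.54, SE 0.16, adjusted p = 0.0151) were higher by less. *Lamb1* was at 5.09, 5.1 and 5.93 in RGd2 and 4.91, 5.62 and 18.6 in *Rbpj*-KO: it was called (log2 fold change 0.85, SE 0.28, adjusted p = 0.0281), but 2 of the 3 mutant libraries lay in or below the RGd2 range, and without the lines that stood apart it was 0.040 (adjusted p = 0.934). *Lama5*, at 18.8, 16.6 and 12.9 and 15.1, 14.9 and 16.4, overlapped and was not called.

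Without the RGd2-clonal and c36 libraries 6 members were called higher at N16h and 0 lower, with *Col4a1* at 2.64 (adjusted p = 3.85e-21), *Col4a2* at 2.73 (adjusted p = 3.29e-17), *Lama1* at 2.43 (adjusted p = 3.62e-19) and *Nid1* at 0.69 (adjusted p = 8.92e-05), and with *Lamc1* (0.32, adjusted p = 0.127) and *Hspg2* (0.34, adjusted p = 0.178) not called. Of the 9 primitive endoderm markers 3 passed the FPKM minimum, 2 were called higher in *Rbpj*-KO (*Cubn* 3.24 and *Dab2* 2.22), and the sum was 2.25 to 16.1 against 0.918 to 2.71. Among other cell type lists were the 7 trophectoderm markers (sum 15.4 to 21.9 against 4.75 to 5.2, 2 called higher and 0 lower) and the 5 neural markers (sum 31.7 to 33.6 against 15.1 to 20.1, 3 called higher and 0 lower). Of the 18 other basement membrane components listed, 4 passed the FPKM minimum, 3 were called higher and 0 lower (median log2 fold change 0.41). *Nid2* at 0.51, *Agrn* at 0.50 and *Col18a1* at 0.33 changed most. Of the 13 collagen-processing genes listed, 10 passed the FPKM minimum, 4 were called higher and 0 lower (median log2 fold change 0.37). *Serpinh1* at 1.81, *Plod1* at 0.54 and *Plod2* at 0.41 changed most. Of the 11 basement membrane receptors listed, 7 passed the FPKM minimum, 3 were called higher and 0 lower (median log2 fold change 0.12). *Itga1* at 1.08, *Itga3* at 0.72 and *Itga6* at 0.57 changed most. When libraries were left out one at a time, no call was made any longer for *Lamb1* without any 1 of replicates 22 (0.81), 23 (0.82) and 21 (−0.033), *Lamc1* without replicate 21 (0.38) and *Hspg2* without replicate 24 (0.35). *Lama1* moved by over 0.58 (log2) without replicate 24 (3.75) or 21 (1.32), *Col4a1* without replicate 24 (3.82) or 21 (1.67) and *Col4a2* without replicate 24 (3.91) or 21 (1.85). A call was also lost for *Lamb1* with TMM normalization (0.68, adjusted p = 0.107), a fit of only the libraries compared (0.85, adjusted p = 0.0646) and DESeq2 (0.85, adjusted p = 0.101).

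ETV5 is an ETS transcription factor downstream of FGF and ERK signaling. In 2i, *Etv5*-KO and RGd2 cells differed in few members, with 1 called higher (all genes 6.1%), *Lama1*, and 1 lower (all genes 27.8%), *Lama5* (medians −0.14 and −0.20). *Lama1* was at 4.79, 4.35 and 5.21 in RGd2 and 12.5, 12.7 and 9.79 in *Etv5*-KO (log2 fold change 1.29, SE 0.47, adjusted p = 0.0344), and *Lama5* at 29.4, 23.3 and 19.6 and 14.5, 13 and 11.9 (log2 fold change −0.88, SE 0.13, adjusted p = 1.73e-06). The groups did not overlap for either α chain. *Col4a1* was at 1.71, 2.18 and 2.06 in *Etv5*-KO, against 2.23, 1.83 and 7.71 in RGd2, where the highest is RGd2-clonal (log2 fold change −0.84, SE 0.58, adjusted p = 0.289), and without that library the difference was −0.036, adjusted p = 0.860. *Lamb1* was at 4.53, 4.83 and 3.67 against 8.33, 6.69 and 5.47 (log2 fold change −0.67, SE 0.28, adjusted p = 0.0716). Without the lines that stood apart *Lama1* remained called (1.35, adjusted p = 1.94e-12), and *Lamb1* was called lower (−0.79, adjusted p = 2.09e-05). The primitive endoderm marker sum was 1.26 to 1.35 in *Etv5*-KO. Lists of the other cell types were, in 2i, the 7 trophectoderm markers (sum 20.2 to 23.7 against 16.4 to 23.0, 1 called higher and 1 lower), the 5 neural markers (sum 24.2 to 28.0 against 51.2 to 62.6, 0 called higher and 2 lower), the 5 mesoderm markers (sum 1.10 to 1.5 against 3.94 to 8.37, 0 called higher and 1 lower) and the 6 fibroblast markers (sum 1.05 to 1.48 against 1.88 to 2.64, 0 called higher and 0 lower). In fits that lacked 1 library, the call went for *Lama1* without any 1 of replicates 31 (1.30), 32 (1.23), 25 (1.24), 26 (1.23) and 27 (1.40). *Lamb1* became called without replicate 33 (−0.79) and *Nid1* without replicate 31 (0.45). The setting also ended the call of *Lama1* with DESeq2 (1.28, adjusted p = 0.116). With TMM normalization *Lamc1* (0.47, adjusted p = 0.00611) and *Nid1* (0.50, adjusted p = 4.78e-04) were called higher.

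At N16h, 5 members were called higher in *Etv5*-KO than in RGd2, beside 29.2% of all genes, and 0 lower, beside 3.24% (medians 0.75 and 0.23). *Nid1* was at 15, 14 and 14.8 in RGd2 and 40.6 and 40.1 in the 2 mutant libraries (log2 fold change 1.47, SE 0.15, adjusted p = 5.94e-10). *Hspg2* was at 13.8, 11.9 and 7.96 and 25.2 and 26.2 (log2 fold change 1.20, SE 0.18, adjusted p = 1.89e-06), *Sparc* at 31.1, 30.3 and 31.3 and 63.3 and 68.4 (log2 fold change 1.09, SE 0.19, adjusted p = 2.42e-05). *Lamc1* was at 42.1, 40.3 and 36.3 and 78.6 and 79.3 (log2 fold change 1.0, SE 0.17, adjusted p = 1.44e-05). Linker, γ1 chain and collagen-binding protein thus each lay above all 3 RGd2 libraries in both mutant lines. *Lama5* was called at the smaller value of 0.44 (SE 0.14, adjusted p = 0.0203), and *Lama1*, at 4.29 and 4.25 in the mutant and 1.03, 0.950 and 4.54 in RGd2, was not (log2 fold change 1.01, SE 0.51, adjusted p = 0.153). Without the lines that stood apart, 7 were called higher and 0 lower, among them *Lama1* (2.11, adjusted p = 5.84e-17), *Col4a1* (1.36, adjusted p = 3.64e-11) and *Col4a2* (1.38, adjusted p = 5.49e-08), at a marker sum of 1.70 to 1.88 in *Etv5*-KO against 0.918 to 2.71 in RGd2. Other cell type lists gave the 7 trophectoderm markers (sum 18.4 to 19.7 against 4.75 to 5.2, 3 called higher and 0 lower), the 5 neural markers (sum 25.1 to 27.8 against 15.1 to 20.1, 1 called higher and 1 lower) and the 6 fibroblast markers (sum 1.67 to 2.04 against 0.819 to 0.994, 1 called higher and 0 lower). Among other basement membrane components, 5 of 18 passed the minimum, with 4 called higher and 0 lower and a median log2 fold change of 0.67. The largest were *Npnt* at 1.74, *Nid2* at 0.82 and *Agrn* at 0.67. Among collagen-processing genes, 9 of 13 passed the minimum, with 4 called higher and 0 lower and a median log2 fold change of 0.21. The largest were *Plod1* at 1.75, *Colgalt1* at 0.84 and *P3h1* at 0.83. Among basement membrane receptors, 8 of 11 passed the minimum, with 5 called higher and 0 lower and a median log2 fold change of 0.73. The largest were *Itgb4* at 1.51, *Itga1* at 0.93 and *Itga3* at 0.78. With single libraries left out, calls were lost for *Lama5* without replicate 24 (0.30) or 18 (0.36). *Lama1* became called without replicate 24 (2.11) and *Lamb2* without replicate 22 (0.55). Other settings ended the call of *Lama5* with TMM normalization (0.21, adjusted p = 0.121).

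Whether withdrawal of the inhibitors acted differently in the mutants was tested as the difference between genotypes in the change from 2i to N16h. In *Etv5*-KO cells, members called higher at N16h than in 2i numbered 4 (31.2% of all genes) and lower 2 (9.45%), with medians of 0.56 and 0.19. *Hspg2* rose from 17.1, 15.9 and 13.6 to 25.2 and 26.2 (log2 fold change 0.72, SE 0.18, adjusted p = 0.00136), *Lama5* by 0.73 (SE 0.14, adjusted p = 7.85e-05), *Sparc* by 0.50 (SE 0.19, adjusted p = 0.0360) and *Lamc1* by 0.42 (SE 0.17, adjusted p = 0.0491) on the log2 scale. *Lama1* fell, from 12.5, 12.7 and 9.79 to 4.29 and 4.25 (log2 fold change −1.45, SE 0.53, adjusted p = 0.0310), and so did *Lamb2* (log2 fold change −0.55, SE 0.17, adjusted p = 0.0105). *Nid1*, which fell in RGd2, was at 48.5, 51.9 and 40.4 in 2i and 40.6 and 40.1 at N16h and was not called on the spike-in scale, but was called lower with TMM normalization (−0.46, adjusted p = 0.00268), which gave 3 members lower in place of 2. The difference between the responses of *Etv5*-KO and RGd2 was called higher for 5 members, a share near the 36.6% of all genes, and lower for 0, against 0.53%. These were *Hspg2* (difference in log2 fold change 1.48, SE 0.24, adjusted p = 1.54e-05), *Lama5* (difference in log2 fold change 1.32, SE 0.19, adjusted p = 2.47e-06), *Nid1* (difference in log2 fold change 1.16, SE 0.20, adjusted p = 4.23e-05), *Sparc* (difference in log2 fold change 1.05, SE 0.26, adjusted p = 0.00256) and *Lamc1* (difference in log2 fold change 0.74, SE 0.23, adjusted p = 0.0145). Over all genes the median of this difference was 0.44 on the spike-in scale and −0.010 with TMM normalization, against 1.01 over the members on the spike-in scale. With TMM normalization *Hspg2* was at 1.06, *Lama5* at 0.88 and *Nid1* at 0.73, all called.

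With the clonal line as a replicate block, which pairs lines c17 and c1 of *Etv5*-KO and the lines of RGd2 across the 2 times, 8 members were called in the *Etv5*-KO difference, with *Lamb1* (1.0, adjusted p = 0.00203), *Col4a1* (1.28, adjusted p = 4.84e-05) and *Col4a2* (0.82, adjusted p = 0.0286) added. Without RGd2-clonal 9 were called, with *Lama1* (0.76, adjusted p = 0.00228), whose estimate with all libraries is −0.29, and *Lamb1* (1.17, adjusted p = 4.95e-05), *Col4a1* (1.40, adjusted p = 1.37e-07) and *Col4a2* (0.97, adjusted p = 0.00388) added. The share of all genes called, 36.6% in the main fit, was not counted with the block or without RGd2-clonal. These counts are therefore not read as particular to the members. In the *Etv5*-KO change itself the block gave 1 member lower in place of 2, *Lamb2* being lost (−0.42, adjusted p = 0.0829), with *Lamb1* (0.66, adjusted p = 0.00468), *Col4a1* (1.11, adjusted p = 1.31e-07) and *Col4a2* (0.70, adjusted p = 0.00253) called higher and *Lamc1* not called (0.44, adjusted p = 0.0838). Unblocked, *Col4a1* went from 1.71, 2.18 and 2.06 to 4.32 and 4.85 in these cells (log2 fold change 1.21, SE 0.60, adjusted p = 0.117). When libraries were left out one at a time, for the *Etv5*-KO change, no call was made any longer for *Lama1* without any 1 of replicates 25 (−1.39), 26 (−1.38), 17 (−1.45) and 18 (−1.44), *Lamb2* without any 1 of replicates 25 (−0.43), 17 (−0.50) and 18 (−0.60), *Lamc1* without any 1 of replicates 25 (0.44), 26 (0.47), 27 (0.36), 17 (0.43) and 18 (0.41) and *Sparc* without any 1 of replicates 27 (0.41), 17 (0.56) and 18 (0.45). A call was also lost for *Lama1* with DESeq2 (−1.45, adjusted p = 0.105). *Lamc1* lost its call with TMM normalization (0.18, adjusted p = 0.347) and DESeq2 (0.42, adjusted p = 0.0549). *Sparc* lost its call with TMM normalization (0.27, adjusted p = 0.278) and DESeq2 (0.50, adjusted p = 0.0928). In fits that lacked 1 library, for the difference from RGd2, the call went for *Lamc1* without replicate 31 (0.58) or 18 (0.73). *Lamb1* became called without replicate 33 (1.09), *Lamb2* without replicate 33 (0.53) and *Col4a1* without replicate 24 (2.21). The setting also ended the call of *Lamc1* with TMM normalization (0.30, adjusted p = 0.373). *Sparc* lost its call with TMM normalization (0.61, adjusted p = 0.124).

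In *Rbpj*-KO cells 0 members were called higher at N16h than in 2i (11.6% of all genes) and 3 lower (16.2%), *Nid1* (log2 fold change −0.92, SE 0.14, adjusted p = 1.33e-06), *Lamb2* (log2 fold change −0.57, SE 0.15, adjusted p = 0.00407) and *Hspg2* (log2 fold change −0.47, SE 0.16, adjusted p = 0.0319), with medians of −0.25 and −0.044. Each of the 3 also fell in RGd2 cells. *Lama1* went from 16.2, 12.1 and 20.7 to 4.96, 5.71 and 29.3, lower in c28 and c33 and higher in c36, and was not called. With the line as a block, 2 were called higher, *Col4a1* (0.47, adjusted p = 6.00e-04) and *Col4a2* (0.44, adjusted p = 0.00542), and 6 lower, with *Lama1* (−0.74, adjusted p = 0.0323), *Lama5* (−0.26, adjusted p = 0.0298) and *Sparc* (−0.27, adjusted p = 0.0202) added. No member was called in the difference between the *Rbpj*-KO and RGd2 responses by edgeR, neither higher (0, against 3.77% of all genes) nor lower (0, against 0.238%), and all 10 estimates were above 0 with all libraries, with a median of 0.37 against 0.19 over all genes. At an unadjusted p under 0.05 there were 2, and DESeq2 called 0. The block gave 2, *Lama1* (0.80, adjusted p = 0.0118) and *Lamb1* (0.66, adjusted p = 0.0435). Without the RGd2-clonal and c36 libraries 2 were called, *Lama1* (0.80, adjusted p = 0.0143) and *Col4a1* (0.71, adjusted p = 0.0393). With single libraries left out, for the *Rbpj*-KO change, calls were lost for *Hspg2* without any 1 of replicates 28 (−0.22), 19 (−0.44), 20 (−0.48) and 21 (−0.48). *Lama1* became called without replicate 21 (−1.61), *Lamb1* without replicate 30 (0.91) or 19 (0.82), *Col4a1* without replicate 30 (1.70), *Col4a2* without replicate 30 (1.66) and *Sparc* without replicate 21 (−0.58). When libraries were left out one at a time, for the difference from RGd2, a call was added for *Nid1* without replicate 33 (0.57).

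**Figure D4:**
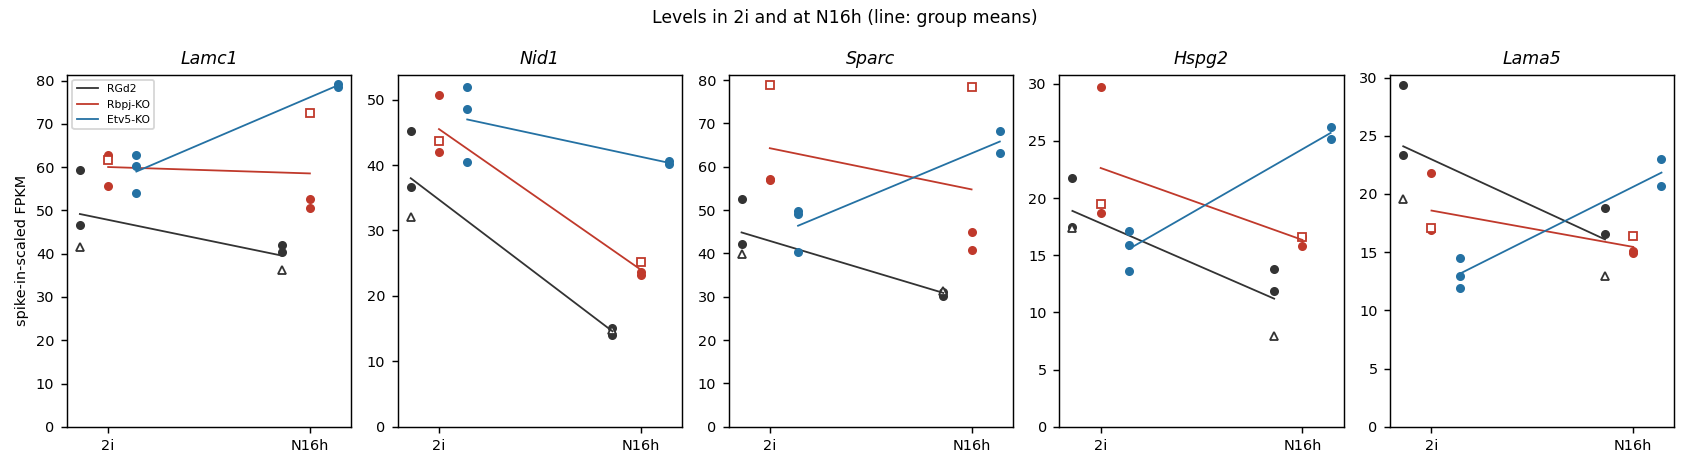
Spike-in-scaled FPKM (linear scale from 0) of *Lamc1*, *Nid1*, *Sparc*, *Hspg2* and *Lama5* in 2i and at N16h in RGd2, *Etv5*-KO and *Rbpj*-KO libraries, 1 point per library, with triangles for RGd2-clonal, squares for *Rbpj*-KO c36 and lines joining group means. *Nid1* goes from 45.2, 36.7 and 32.1 to 15, 14 and 14.8 in RGd2 and from 48.5, 51.9 and 40.4 to 40.6 and 40.1 in *Etv5*-KO.

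ER-dKO lines grow in CH alone, and were set against both RGd2 cells in 2i-p5 and RGd2 cells in CHp2. Against 2i-p5, 5 members were called higher (33.8% of all genes) and 2 lower (8.42%), with medians of 0.45 and 0.21. *Lama1* was at 6.02, 5.82 and 7.27 in 2i-p5 and 22.0, 18.0 and 19.3 in ER-dKO (log2 fold change 1.63, SE 0.46, adjusted p = 0.00549), *Hspg2* at 11.4, 11.5 and 9.90 and 24.3, 24.4 and 24.5 (log2 fold change 1.16, SE 0.16, adjusted p = 4.74e-07). *Lamb1*, at 2.91, 2.84 and 2.45, was lower (log2 fold change −1.25, SE 0.28, adjusted p = 6.76e-04), and *Lamb2*, at 11, 10.1 and 10.3, higher (log2 fold change 0.55, SE 0.15, adjusted p = 0.00403), a pattern of β chains opposite to that of RGd2 cells in CHp2. *Col4a1* at 2.76, 2.84 and 2.71 (log2 fold change 2.04, SE 0.64, adjusted p = 0.0117) and *Col4a2* at 1.5, 1.49 and 1.24 (log2 fold change 1.99, SE 0.69, adjusted p = 0.0220) were higher, and *Nid1* at 12.9, 12.8 and 13.7 was lower (log2 fold change −0.76, SE 0.14, adjusted p = 3.48e-05). Against RGd2 cells in the same medium, CHp2, 5 were called higher (28.3% of all genes) and 2 lower (21.3%), with medians of 0.53 and 0.089. The direction was opposite for the paired chains: *Lama1* (log2 fold change 3.58, SE 0.52, adjusted p = 2.38e-07) and *Lamb2* (log2 fold change 1.23, SE 0.15, adjusted p = 1.21e-08) were higher and *Lama5* (log2 fold change −0.93, SE 0.13, adjusted p = 1.46e-07) and *Lamb1* (log2 fold change −2.63, SE 0.29, adjusted p = 7.90e-10) lower in ER-dKO. *Nid1* (log2 fold change 1.63, SE 0.15, adjusted p = 2.76e-12), *Hspg2* (log2 fold change 0.96, SE 0.16, adjusted p = 5.58e-06) and *Lamc1* (log2 fold change 0.65, SE 0.15, adjusted p = 5.11e-04) were also higher. *Col4a1* did not pass (log2 fold change −0.87, SE 0.55, adjusted p = 0.206), nor did *Col4a2* (log2 fold change −0.96, SE 0.55, adjusted p = 0.16). The passage number differs between ER-dKO and CHp2 cells, and its part in the differences cannot be told apart from that of the genotype. Against 2i-p5 the medium differs along with the genotype, and these cannot be told apart either.

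The 3 ER-dKO libraries differed little from each other in the members, and without the library labelled ER-dKO replicate 12, 5 members were again called higher and 2 lower in each comparison. The primitive endoderm marker sum was 0.903 to 1.30 in ER-dKO, against 2.52 to 3.77 in CHp2, and none of the markers passed the FPKM minimum. Against CHp2, other cell type lists were the 5 mesoderm markers (sum 5.2 to 6.51 against 65.2 to 70.7, 0 called higher and 1 lower) and the 7 trophectoderm markers (sum 32.7 to 33.4 against 56.7 to 87.8, 1 called higher and 3 lower). Against 2i-p5, other cell type lists were the 7 trophectoderm markers (sum 32.7 to 33.4 against 19.8 to 26.3, 2 called higher and 0 lower), the 5 neural markers (sum 23.2 to 25.2 against 20.7 to 21.9, 1 called higher and 0 lower) and the 5 mesoderm markers (sum 5.2 to 6.51 against 5.1 to 6.31, 0 called higher and 0 lower). In the comparison with CHp2, the other basement membrane components had 2 called higher and 4 lower out of 7 past the minimum (18 listed, median log2 fold change −1.58). *Fras1* at −4.67, *Frem2* at −3.30 and *Col4a5* at −2.73 led this list. The collagen-processing genes, also against CHp2, had 3 called higher and 4 lower out of 11 past the minimum (13 listed, median log2 fold change −0.051). *Loxl2* at −2.79, *P4ha2* at −2.50 and *Pxdn* at −2.26 led this list. The basement membrane receptors, again against CHp2, had 1 called higher and 5 lower out of 7 past the minimum (11 listed, median log2 fold change −0.81). *Itga3* at −2.44, *Ddr1* at −1.47 and *Itga6* at 0.86 led this list. *Fras1*, *Frem2* and *Col4a5* were among those called higher in CHp2 than in 2i-p5, and both comparisons share the CHp2 libraries. Without RGd2-clonal, *Col4a2* was called lower (−0.64, adjusted p = 0.00201) and *Sparc* higher (0.36, adjusted p = 0.00971) against CHp2, and *Sparc* lower against 2i-p5 (−0.40, adjusted p = 0.00412). In fits that lacked 1 library, against 2i-p5, the call went for *Col4a1* without replicate 3 (1.89) and *Col4a2* without replicate 2 (2.04) or 3 (1.75). The setting also ended the call of *Col4a1* with TMM normalization (1.85, adjusted p = 0.0674). *Col4a2* lost its call with TMM normalization (1.81, adjusted p = 0.0985). With single libraries left out, against CHp2, the log2 fold change moved by over 0.58 for *Lama1* without replicate 6 (4.28).

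ETR-tKO lines were kept for 5 passages in N2B27 without any inhibitor, the medium in which RGd2 cells leave the naive state. Against RGd2 2i-p5, 5 members were called higher (37.6% of all genes) and 1 lower (9.52%), with medians of 0.30 and 0.23. *Col4a1* was at 21.2, 27.2 and 26.1 against 0.732, 0.762 and 0.559 in 2i-p5 (log2 fold change 5.2, SE 0.67, adjusted p = 3.81e-08), and *Col4a2* at 7.64, 11.6 and 10.1 against 0.481, 0.376 and 0.264 (log2 fold change 4.78, SE 0.67, adjusted p = 2.64e-07). *Hspg2* was higher (log2 fold change 1.26, SE 0.17, adjusted p = 6.05e-08), as were *Sparc* (log2 fold change 0.44, SE 0.17, adjusted p = 0.0434) and *Lamc1* (log2 fold change 0.44, SE 0.15, adjusted p = 0.0198) by less, and *Lama1*, at 1.95, 2.05 and 2.07, was lower (log2 fold change −1.66, SE 0.48, adjusted p = 0.00520). The other laminin chains and *Nid1* (16.1, 22.2 and 20.2) were not called. Replicate 13 lay apart from replicates 14 and 15, the lines with Tc1 in their names, in *Hspg2* (18.0, 31.9 and 28.4), *Lamc1* (29.1, 46.6 and 43.2) and *Lamb1* (9.76, 5.26 and 5.65). Against RGd2 cells at N72h, 3 were called higher (35.4% of all genes) and 3 lower (23.5%), with medians of −0.017 and 0.11. *Nid1* was higher in ETR-tKO (log2 fold change 2.56, SE 0.15, adjusted p = 4.22e-18), and so were *Lamb2* (log2 fold change 0.92, SE 0.15, adjusted p = 2.77e-06) and *Hspg2* (log2 fold change 0.40, SE 0.16, adjusted p = 0.0397). *Lama1* (log2 fold change −3.06, SE 0.49, adjusted p = 1.50e-06), *Lamb1*, at 9.76, 5.26 and 5.65 against 21.2, 24.3 and 32.4 (log2 fold change −1.91, SE 0.28, adjusted p = 3.33e-07), and *Lama5* (log2 fold change −0.83, SE 0.13, adjusted p = 9.21e-07) were lower. *Col4a1* was at 21.2, 27.2 and 26.1 against 13.7, 16.3 and 41.5 at N72h, so that the ETR-tKO libraries lay between the parental libraries and RGd2-clonal, and it was not called. The collagen chains were thus not called between ETR-tKO and N72h, whereas 4 of the 5 laminin chains and *Nid1* were. Against 2i-p5 the medium differs along with the genotype, and against N72h the time in N2B27 does. Their parts cannot be told apart from that of the genotype.

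The primitive endoderm marker sum in ETR-tKO was 2.83 to 3.28, against 0.666 to 0.892 in 2i-p5 and 7.79 to 24.6 at N72h. Against 2i-p5 none of the 9 markers passed the FPKM minimum. Against N72h, 4 of the 5 markers past the minimum were called lower (*Cubn* −5.52, *Gata6* −5.19, *Dab2* −3.68 and *Gata4* −1.43). Without RGd2-clonal, 5 members were called higher and 3 lower against N72h, *Col4a1* (0.73, adjusted p = 1.74e-06) and *Lamc1* (0.48, adjusted p = 0.00150) being added to those higher and *Col4a2* going from −0.41 to 0.33 (adjusted p = 0.0808), and against 2i-p5 *Nid1* was called lower (−0.32, adjusted p = 0.0336). Against 2i-p5, lists of other cell types were the 7 trophectoderm markers (sum 35.6 to 38.5 against 19.8 to 26.3, 3 called higher and 1 lower), the 5 neural markers (sum 68.9 to 74.8 against 20.7 to 21.9, 3 called higher and 0 lower), the 5 mesoderm markers (sum 0.695 to 0.893 against 5.1 to 6.31, 0 called higher and 1 lower) and the 6 fibroblast markers (sum 1.73 to 2.34 against 1.07 to 2.25, 1 called higher and 1 lower). Against N72h, lists of other cell types were the 7 trophectoderm markers (sum 35.6 to 38.5 against 48.8 to 59.1, 2 called higher and 1 lower), the 5 neural markers (sum 68.9 to 74.8 against 70.0 to 89.3, 2 called higher and 1 lower) and the 6 fibroblast markers (sum 1.73 to 2.34 against 5.77 to 6.96, 0 called higher and 1 lower). In the comparison with N72h, 6 of the 18 other basement membrane components listed passed the FPKM minimum, 3 were called higher and 1 lower (median log2 fold change 0.029). *Fras1* at −3.51, *Nid2* at 1.73 and *Col18a1* at 0.45 changed most. Of the 13 collagen-processing genes listed, also against N72h, 11 passed the FPKM minimum, 3 were called higher and 5 lower (median log2 fold change −0.30). *Loxl2* at −2.92, *Pxdn* at −2.82 and *P4ha2* at −2.49 changed most. Of the 11 basement membrane receptors listed, again against N72h, 7 passed the FPKM minimum, 2 were called higher and 4 lower (median log2 fold change −1.01). *Itga1* at 5.71, *Ddr1* at −1.87 and *Itgb1* at −1.17 changed most. The same lists differed against 2i-p5. There the receptors had 4 called higher and 0 lower (median 1.25), and the other components 2 and 0 (median 0.59). The collagen-processing genes had 4 called higher and 2 lower against 2i-p5 (median 0.049). When libraries were left out one at a time, against 2i-p5, no call was made any longer for *Lamc1* without any 1 of replicates 1 (0.42), 3 (0.40), 14 (0.31) and 15 (0.37) and *Sparc* without any 1 of replicates 1 (0.48), 2 (0.49), 3 (0.34), 13 (0.40), 14 (0.45) and 15 (0.46). A call was also lost for *Lamc1* with TMM normalization (0.19, adjusted p = 0.264). *Sparc* lost its call with TMM normalization (0.19, adjusted p = 0.388) and DESeq2 (0.44, adjusted p = 0.0990). In fits that lacked 1 library, against N72h, the call went for *Hspg2* without any 1 of replicates 7 (0.34), 8 (0.42), 9 (0.43), 14 (0.23) and 15 (0.33). *Lamc1* became called without replicate 9 (0.48) or 13 (0.41). *Lama1* moved by over 0.58 (log2) without replicate 9 (−2.23). The setting also ended the call of *Hspg2* with TMM normalization (0.28, adjusted p = 0.0894).

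**Figure D5:**
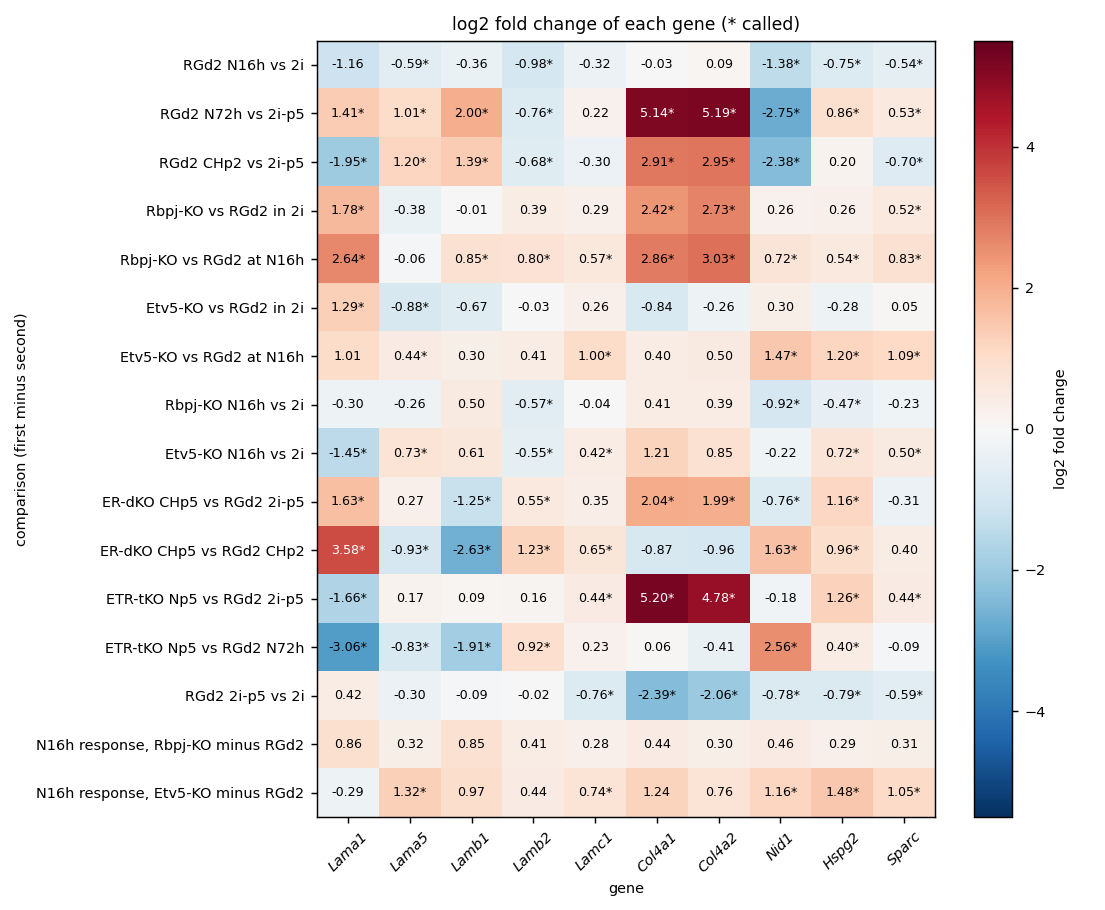
Log2 fold changes of the 10 members (columns) in each of the comparisons (rows) as a color scale, with an asterisk where the member was called. *Col4a1* and *Col4a2* reach 5.1 and 5.19 in N72h against 2i-p5, and *Nid1* reaches −2.75 in the same row.

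RGd2 cells in 2i-p5 and those moved to 2i shortly before sampling are both labelled as 2i cultures. In 2i-p5, 6 were called lower (49.3% of all genes) and 0 higher (2.89%), with medians of −0.67 over the members and −0.35 over all genes, the latter −0.0063 with TMM normalization, under which 3 members were called lower. The share of members called lower is thus near that of all genes. *Col4a1*, at 0.732, 0.762 and 0.559 in 2i-p5 and 2.23, 1.83 and 7.71 in 2i, changed most (log2 fold change −2.39, SE 0.66, adjusted p = 0.00435), followed by *Col4a2* (log2 fold change −2.06, SE 0.73, adjusted p = 0.0230). *Hspg2* (log2 fold change −0.79, SE 0.16, adjusted p = 2.89e-04), *Nid1* (log2 fold change −0.78, SE 0.14, adjusted p = 4.00e-05), *Lamc1* (log2 fold change −0.76, SE 0.15, adjusted p = 2.17e-04) and *Sparc* (log2 fold change −0.59, SE 0.17, adjusted p = 0.00739) were lower as well, and in each the 3 libraries of 2i-p5 lay below the 3 of 2i. Without RGd2-clonal *Col4a1* was at −1.44 (adjusted p = 1.04e-08), and *Col4a2* at −1.15 (adjusted p = 2.56e-04), then below the FPKM minimum in both groups. *Lama1* was then called higher (0.37, adjusted p = 0.0308) and *Lama5* lower (−0.33, adjusted p = 0.0368). The marker sum of primitive endoderm was 0.666 to 0.892 and 0.691 to 2.63. The libraries of these sets differ in culture history, and anything else that differs between the sets cannot be told apart from it. For the members called here, the comparisons of N72h, CHp2, ER-dKO and ETR-tKO with 2i-p5 rest on the lower of the RGd2 2i cultures. Mean *Col4a1* in RGd2 in 2i was 3.92, above ER-dKO (2.77) and below CHp2 (5.08), N72h (23.8) and ETR-tKO (24.9). With single libraries left out, calls were lost for *Col4a2* without any 1 of replicates 33 (−1.39), 2 (−2.11) and 3 (−1.82) and *Sparc* without replicate 31 (−0.46) or 3 (−0.49). *Lama5* became called without replicate 33 (−0.43) or 2 (−0.39). *Col4a1* moved by over 0.58 (log2) without replicate 33 (−1.59). Other settings ended the call of *Col4a1* with TMM normalization (−2.04, adjusted p = 0.0810). *Col4a2* lost its call with TMM normalization (−1.66, adjusted p = 0.212). *Sparc* lost its call with TMM normalization (−0.26, adjusted p = 0.313).

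As a description, the members' mean log2 levels over the 11 conditions were compared with each other and with 13718 genes; conditions share lines and a culture history, so no test is given. *Col4a1* and *Col4a2* were most alike (Pearson r = 0.99), followed by *Lamc1* with *Sparc* (0.88), *Lamc1* with *Nid1* (0.79) and *Lama5* with *Lamb1* (0.73). *Lama5* and *Nid1* were the most unlike (−0.79), then *Lamb1* and *Nid1* (−0.69). More than one pattern was present among the members: a collagen pair, a set with *Lamc1*, *Nid1* and *Sparc*, and the pair of *Lama5* and *Lamb1*. Outside the members, the genes most like *Lamc1* were *Ets2* (0.972), *Vps45* (0.970), *Fig4* (0.963), *Islr2* (0.960) and *Stx12* (0.951), and those most like *Col4a1* were *Mir487b* (0.924), *Irak1bp1* (0.912), *H3f3b* (0.907), *Atp2a3* (0.903) and *Ckap5* (0.902).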

How the data were processed

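The authors deposited raw counts per gene for 32 RNA-seq libraries. Per the labels and the study's methods, ribosomal RNA was depleted, synthetic spike-in RNAs were added, reads were trimmed with Trim Galore and aligned with TopHat2 to mm10 guided by Gencode gene models, and uniquely mapped primary alignments were counted with featureCounts on the strand of the gene, so that these counts hold no normalization. The molecule label names polyA RNA although the protocol describes ribosomal depletion. Multi-mapped reads are absent, so genes with close copies would be undercounted.

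Groups, lines and replicate numbers were taken from the labels. The study's methods state fewer replicates for RGd2 at N16h than the 3 libraries labelled so, and the labels were followed. Genes without a symbol (193 of 51826, 0.02589% of counts) could not be named. Scaling used median-of-ratios size factors over 52 of 92 spike-ins, and FPKM were computed here from the counts and annotated exon lengths. Differences were tested in R 4.3.3 with edgeR 4.0.16 (glmQLFit and glmQLFTest, two-sided) in 1 model of all 32 libraries with 1 coefficient per condition, after filterByExpr left 19037 genes, and calls were those with adjusted p under 0.05 whose FPKM averaged 1 or more in either group. The code was tested on simulated data. In all, 16 comparisons were made. Ratios were compared in Python 3.11.15 with scipy 1.17.1, and figures drawn with matplotlib 3.10.9.

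Alternatives were TMM, median-of-ratios on gene counts, DESeq2 1.42.0, no low-count filter, no FPKM minimum, only the libraries compared, leaving out each library in turn, and the clonal line as a replicate block. The labels give the clonal line, and lines recur between the conditions of a genotype, so that the block pairs libraries of one line. Libraries of one group differed by more than counting noise (chi-square per gene 3.39 to 44.3), so none was counted as a copy. Counting error is larger where counts are low, and the lowest count of a member was 35. The shallowest library, RGd2 2i replicate 33 (5986857 counts on genes), is from RGd2-clonal, so in RGd2 2i the lowest depth and the clonal line fall together.

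The members, the gene lists and the rule for named genes were chosen with earlier results of these data known. All 10 members are named in every comparison, with the targeted genes as a check, at most 3 called genes per list by absolute log2 fold change, the markers of a list that moved, and the 5 genes most correlated with *Lamc1* and with *Col4a1*. All 103 genes of the lists were found, some items not being reported here: other basement membrane components, collagen-processing genes, receptors, and markers of primitive endoderm, trophectoderm, neural, mesoderm, fibroblast, naive, formative and general pluripotent cells.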

Additional observations from a re-analysis of the deposited data

Results flagged for a closer look

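The change from 2i to N16h differed between *Etv5*-KO and RGd2 cells, by the interaction term of the edgeR model (Benjamini-Hochberg over all genes tested), for 5 of the 10 members, beside 36.6% of all genes called in the same direction. The share of members called is thus near that of all genes, whose median difference was 0.44 on the spike-in scale. The difference in log2 fold change was 1.48 for *Hspg2*, 1.32 for *Lama5*, 1.16 for *Nid1*, 1.05 for *Sparc* and 0.74 for *Lamc1*. In *Hspg2*, *Lama5*, *Sparc* and *Lamc1* the mean was higher at N16h than in 2i in *Etv5*-KO cells and lower in RGd2 cells. Mean *Nid1* was lower at N16h in both, and by more in RGd2. Of these changes, edgeR did not call that of *Nid1* in *Etv5*-KO (log2 fold change −0.22, adjusted p = 0.286). Nor did it call that of *Lamc1* in RGd2 (−0.32, adjusted p = 0.102). The comparison rests on 2 *Etv5*-KO libraries at N16h. With TMM normalization *Sparc* (0.61, adjusted p = 0.124) and *Lamc1* (0.30, adjusted p = 0.373) were not called.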

How the results depend on the processing

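Each alternative was run on the comparisons it applies to, the block on 8 of the 16 and the fit without RGd2-clonal and c36 on 15. Among the log2 fold changes that were called, or over 0.5 in size, with all libraries, 3 reversed under an alternative, each without *Rbpj*-KO N16h replicate 21: *Lamb1* in *Rbpj*-KO against RGd2 at N16h (−0.033, up to 1.17 without other single libraries), and *Lama1* (−0.46, up to 1.97) and *Lamb1* (−0.028, up to 1.27) in the difference of responses. Smaller estimates that were not called also changed sign, among them 11 with TMM normalization, 2 with the block and 7 without RGd2-clonal and c36, of which *Lama1* in the *Etv5*-KO difference of responses then passed (−0.29 to 0.76). Counts of members called that moved are given by comparison, the value with all libraries first. The cause was not tested, and the share of all genes called was not counted in these settings. Without a filter on low counts they went, in RGd2 N16h against 2i, from 5 lower to 8, in *Rbpj*-KO against RGd2 in 2i from 0 lower to 1, in *Etv5*-KO against RGd2 from 1 lower to 3 in 2i and from 5 higher to 9 at N16h, in *Rbpj*-KO N16h against 2i from 0 higher to 3, in *Etv5*-KO N16h against 2i from 4 higher to 7, in ER-dKO against CHp2 from 2 lower to 4, in 2i-p5 against 2i from 0 higher to 1, and in the difference of responses from 0 higher to 2 for *Rbpj*-KO and from 5 to 8 for *Etv5*-KO.

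TMM and median-of-ratios scaling of the gene counts both gave 1 lower in place of 0 for *Rbpj*-KO in 2i, 3 higher in place of 1 for *Etv5*-KO in 2i, 2 higher in place of 4 for *Etv5*-KO N16h against 2i, 3 higher in place of 5 for ER-dKO against 2i-p5, 3 higher and 2 lower in place of 5 and 1 for ETR-tKO against 2i-p5, 3 lower in place of 6 for 2i-p5 against 2i, and 3 higher in place of 5 for the *Etv5*-KO difference of responses. DESeq2 gave 2 higher and 1 lower in place of 4 and 0 for *Rbpj*-KO in 2i, 0 higher in place of 1 for *Etv5*-KO in 2i, and 2 higher and 1 lower in place of 4 and 2 for *Etv5*-KO N16h against 2i. A fit of only the libraries compared gave 3 lower in place of 1 for *Etv5*-KO in 2i, 7 higher in place of 4 for *Etv5*-KO N16h against 2i and 4 lower in place of 2 for ER-dKO against CHp2.

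With the clonal line as a replicate block, *Rbpj*-KO N16h against 2i had 2 higher and 6 lower in place of 0 and 3, *Etv5*-KO N16h against 2i had 1 lower in place of 2, and the differences of responses had 2 higher in place of 0 for *Rbpj*-KO and 8 in place of 5 for *Etv5*-KO; the block moved no other count of members called by over 1.5 times. Without the RGd2-clonal and c36 libraries, chosen after seeing the data, the log2 change of the *Lama5* to *Lama1* ratio at N72h was 0.25 in place of −0.15, RGd2 N16h against 2i had 8 lower in place of 5, *Rbpj*-KO and *Etv5*-KO in 2i had 2 lower each in place of 0 and 1, *Rbpj*-KO N16h against 2i had 2 higher and 6 lower in place of 0 and 3, ETR-tKO had 2 lower in place of 1 against 2i-p5 and 5 higher in place of 3 against N72h, 2i-p5 against 2i had 1 higher in place of 0, and the differences of responses had 2 higher in place of 0 for *Rbpj*-KO and 9 in place of 5 for *Etv5*-KO. The FPKM minimum changed no count.

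With each library left out in turn, the members called ranged from 0 to 5 higher and 0 to 1 lower for *Rbpj*-KO in 2i, 0 to 1 higher and 1 to 2 lower for *Etv5*-KO in 2i, 0 to 3 higher for *Rbpj*-KO N16h against 2i, 2 to 3 higher and 0 to 2 lower for *Etv5*-KO N16h against 2i, 3 to 5 higher for ER-dKO and 3 to 4 higher for ETR-tKO against 2i-p5, and 0 to 1 higher for the *Rbpj*-KO difference of responses. The log2 change of the *Col4a1* to *Col4a2* ratio ranged from −0.14 to 0.098 at N72h and from −0.26 to 0.0076 in CHp2, and that of *Lama5* to *Lama1* at N72h from −0.46 to 0.46. Where a library of *Etv5*-KO at N16h was left out, the lone library was assumed to vary like the other groups.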

Other observations

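Beside the basement membrane genes, summed levels of naive and formative marker lists differed between the conditions. The 7 naive markers (*Zfp42*, *Esrrb*, *Klf4*, *Tfcp2l1*, *Nanog*, *Tbx3* and *Nr0b1*) summed to 794 to 1090 scaled FPKM in RGd2 in 2i and 394 to 414 at N16h, against 857 to 877 in *Etv5*-KO and 605 to 637 in *Rbpj*-KO at N16h. In N2B27 they were at 47.6 to 53.8 in RGd2 at N72h and 723 to 881 in ETR-tKO, and in CH at 247 to 314 in RGd2 CHp2 and 797 to 819 in ER-dKO. The 5 formative markers (*Pou3f1*, *Fgf5*, *Lef1*, *Otx2* and *Dnmt3b*) summed to 436 to 493 at N72h against 63.4 to 85.7 in ETR-tKO, and to 120 to 136 in CHp2 against 28.3 to 29.7 in ER-dKO. At N16h they were at 114 to 160 in RGd2, 76.4 to 93.1 in *Etv5*-KO and 59.3 to 67.7 in *Rbpj*-KO. These ranges did not overlap between the mutant and RGd2 cells compared, and the differences of sums were not tested.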
